A study of Mus musculus with 4 samples.

Results

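Heat shock proteins and their partner chaperones were examined in heart muscle cells of mice after pressure overload. The set comprised every gene whose symbol starts with Hsp or Dnaj, or with Cct followed by a digit. The endoplasmic reticulum chaperones Hspa5, Hsp90b1, Dnajb9, Dnajb11 and Dnajc3 and the matrix proteoglycan Hspg2 were left out by name. This rule found 79 of the 22322 genes in the deposited tables, and no measured value entered it. By general knowledge of their products, 9 of the 79 genes act in mitochondria (such as Hspa9, Hspd1, Hspe1 and Dnajc11) and 9 in or at the endoplasmic reticulum (such as Hspa13 and Dnajc10), so the set is not cytosolic throughout. The chaperonin subunit Tcp1 belongs to the Cct ring but falls outside the rule by its name, and it is given with the partner genes.

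The data were RNA-seq profiles of cardiomyocytes isolated from male mice, with 2 libraries from mice with transverse aortic constriction (TAC) and 2 from sham-operated mice. TAC narrows the aorta and loads the left ventricle with pressure. Per the study's methods, surgery was done at 2 months of age under ketamine and xylazine, and the hearts were followed for 14 weeks and then digested on a Langendorff system, where an enzyme solution runs through the coronary arteries and frees single cells. The methods also word the age at isolation as 14 weeks, and the sources used here do not give the strain. No transgene or drug distinguished the groups. Each library came from part of the cardiomyocytes of 1 heart, so the spread between the libraries of a group is the spread between 2 mice.

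Library totals ran from 24237777 to 32118323 expected counts. Mitochondrially encoded genes took 39.8% to 40.8% of the counts in 3 libraries and 47.4% in TAC 1. All 12 cardiomyocyte markers (Myh6, Tnnt2 and others) were detected, with a summed level of 75578 and 84339 CPM (counts scaled to a common library size) in sham and 81385 and 78543 CPM in TAC. By the test described below 1 of them was higher in TAC (with total counts, 0 higher and 1 lower). With DESeq2, 5 were higher and 1 lower, beside 3.58% and 3.82% of all genes. The number called also moved when 1 library was left out. Markers of other heart cells were present at far lower levels, and many were lower in TAC. Endothelial markers summed to 869 and 731 CPM in sham against 416 and 574 CPM in TAC, fibroblast markers to 328 and 234 CPM against 147 and 194 CPM, and mural cell markers to 780 and 812 CPM against 452 and 594 CPM. Of these lists 5 of 15, 3 of 15 and 2 of 10 genes were called lower, beside 2.43% of all genes. Macrophage markers summed to 155 and 78.8 CPM against 43.0 and 80.1 CPM, so that the sums overlapped. Of their 15 genes 8 were lower in both TAC libraries, beside 30.3% of all genes. In edgeR 7 had an unadjusted p under 0.05, beside 27.5% of all genes. Of the 15, 0 were called by edgeR and 1 was called lower by DESeq2, beside 3.82% of all genes. These counts rested on single libraries, and leaving out 1 library moved them from 2 to 15 for endothelial, 0 to 9 for fibroblast, 0 to 9 for mural and 0 to 10 for macrophage markers, lowest without TAC 1 and highest without TAC 2 or sham 2. In bulk RNA, fewer cells of a type and less RNA per cell cannot be told apart. No gene of these lists was at 0, and the part of such cells in the chaperone results was not tested.

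Molecular chaperones bind unfolded or partly folded proteins and keep them from aggregating until they fold. Hsp70 proteins (Hspa genes) bind and release short unfolded stretches in a cycle driven by ATP, J-domain proteins (Dnaj genes) deliver clients and start that ATP cycle, and Hsp110 proteins (Hspa4, Hspa4l and Hsph1) reset it by exchanging nucleotide. Hsp90 proteins finish the folding of kinases and receptors, the Cct ring folds actin and tubulin in a closed chamber, and small heat shock proteins (Hspb genes) hold damaged proteins without ATP. Heart muscle is rich in small heat shock proteins, several of which sit on the sarcomere, where the load of contraction unfolds filament proteins. Acute heat or protein damage activates heat shock factor 1, which binds heat shock elements in promoters and raises the inducible genes Hspa1a, Hspa1b, Dnajb1, Hsph1 and Hspb1.

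Of the 79 genes, 67 had enough counts for testing. The other 12 had at most 6 counts in any library, and 4 of these (Hspb9, Dnajb8, Dnajc5b and Dnajc5g) had none. A gene was called where the edgeR quasi-likelihood test gave a Benjamini-Hochberg adjusted p under 0.05 over all 12499 genes tested. There were 14 called chaperone genes, or 20.9% of those tested, beside 5.01% of all genes. The direction was uneven. In TAC, 13 chaperone genes were higher (19.4%, beside 2.58% of all genes) and 1 was lower (1.49%, beside 2.43%). The genes that rose were Hspa1l, Hspa8, Hsp90aa1, Hspb1, Hspb3, Hspb6, Hspb7, Dnaja1, Dnaja4, Dnajb4, Dnajc11, Dnajc27 and Cct6a, and the gene that fell was Dnajb1.

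With the called genes included, both TAC libraries lay above both sham libraries in 40 of the 67 genes (59.7%, beside 29.8% of all genes). They lay below them in 9 (13.4%, beside 30.3%), and 18 overlapped. The log2 fold change of TAC over sham was positive for 51 of the 67 genes, or 76.1%, beside 49.1% of all genes. Its median was 0.19 over the chaperone genes and -0.01 over all genes. The middle of the distribution was also shifted, with quartiles of 0.00 and 0.32 against -0.29 and 0.18 over all genes. Together the 79 genes summed to 7936 and 8485 CPM in the sham libraries and to 11199 and 10369 CPM in the TAC libraries, so that the TAC libraries held the higher summed level. As a plain share of all counts, with no scaling factor, the set took 0.871%, 0.882%, 0.972% and 1.05% in the same order, which also left the groups apart. The sum and the share include the called genes, and the abundant Hspb7, Hspb6 and Hspa8 weigh heavily in both.

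**Figure D1:**
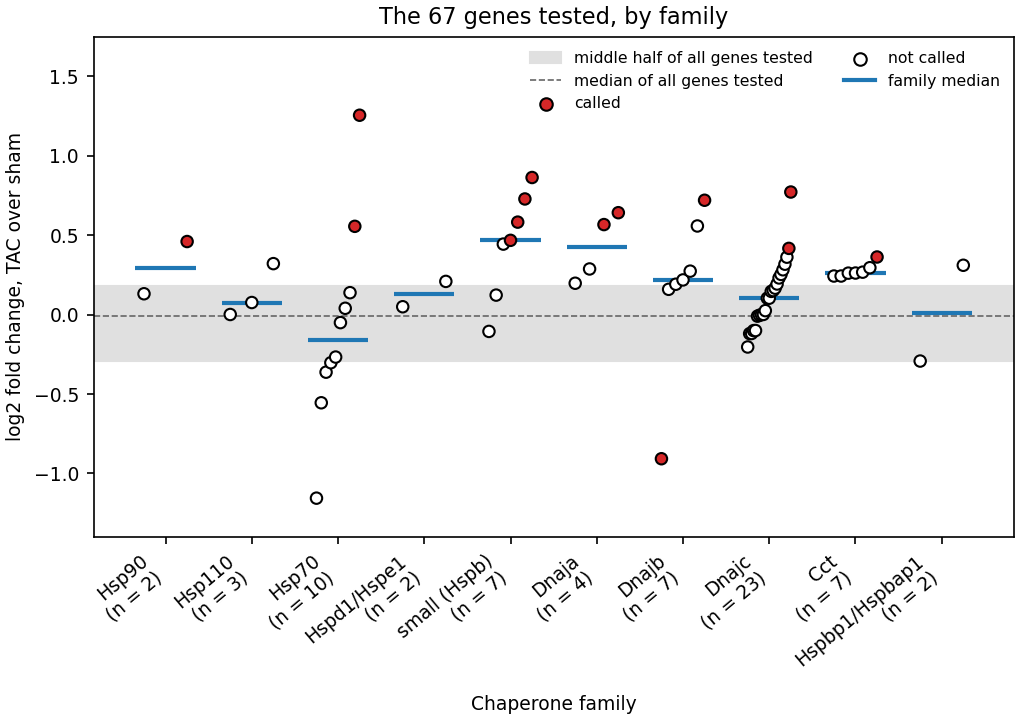
Log2 fold change of TAC over sham (vertical axis) for the 67 tested chaperone genes, grouped by family along the horizontal axis, with 2 libraries per group. Filled points were called, blue bars are family medians, the grey band is the middle range of all 12499 genes from -0.29 to 0.18, and the small heat shock (0.47), Dnaja (0.43), Hsp90 (0.30), Cct (0.26) and Dnajb (0.22) medians lie above it.

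How much of this shift was called depended on the scaling of the libraries. The fold changes above used TMM factors, which set the bulk of genes to no change. With scaling by total counts, the scaling named in the study's methods, the median over all genes moved to -0.20 and the median over the chaperone genes to 0.00, so that the distance between them stayed at 0.20 on the log2 scale. In that scaling 3 chaperone genes were called higher (Hspa1l, Hspb6 and Dnajb4), beside 0.84% of all genes, and 1 lower (Dnajb1), beside 3.38%. The 4 genes compare with 4.22% of all genes called in either direction. The sign of the fold change held for every called gene, and it flipped for 16 of the 67 genes, none of them called. When totals were taken without the mitochondrially encoded genes, 11 were higher (1.49% of all genes) and 1 lower (3.6% of all genes), against 5.09% of all genes in either direction, and the medians were 0.09 and -0.11. With total counts, 19 chaperone genes (28.4%) had both TAC libraries above both sham libraries, beside 8.74% of all genes, and 15 (22.4%) had both below, beside 47.7%. In the deposited FPKM, which the authors scaled themselves, there were 17 (25.4%) above, beside 8.49%, and 15 below, beside 45.6%.

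**Figure D2:**
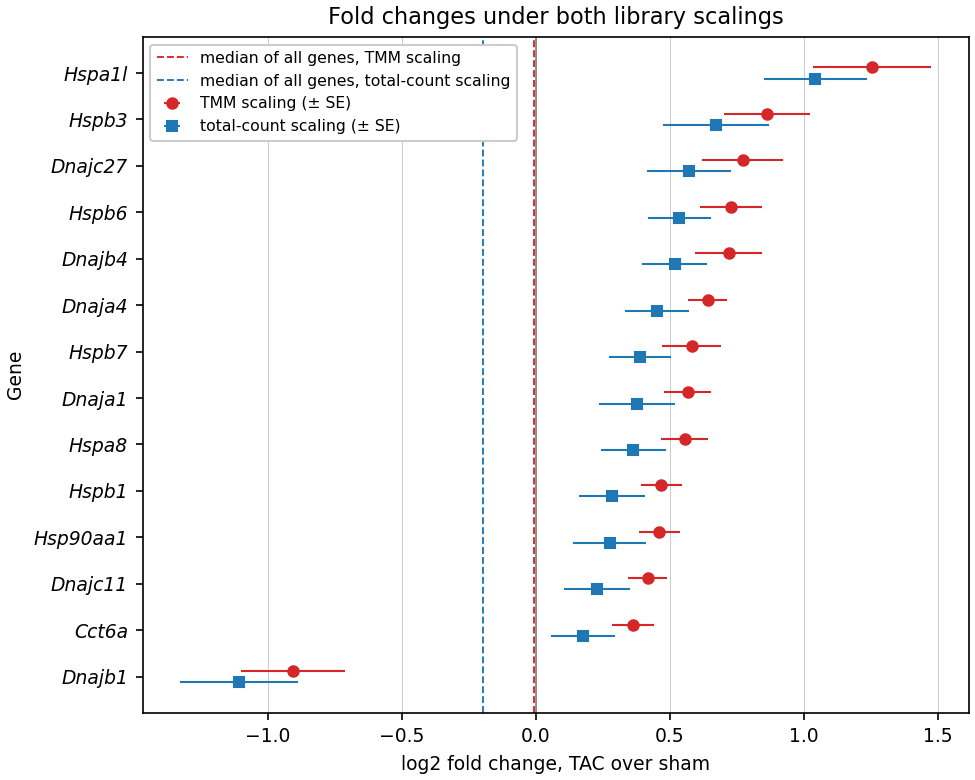
Log2 fold change of TAC over sham with its standard error for the 14 called genes, with TMM scaling (red circles) and total-count scaling (blue squares) of the same 4 libraries. Dashed lines mark the median of all genes, -0.01 and -0.20, and each gene moves with that median, so that every called gene keeps its side of 0.

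Levels were compared between genes by the deposited FPKM, which is per kilobase of transcript. The order of abundance in sham was led by Hspb7 at 655 ± 27.1 FPKM (SD, n = 2), followed by Hspb6 at 488 ± 37.2, Hspa8 at 429 ± 39.97, Hsp90ab1 at 361 ± 5.49, Hspb8 at 258 ± 20.8, Hspa9 at 240 ± 3.75, Hspb1 at 194 ± 5.59 and Hspd1 at 143 ± 8.85. These 8 genes were the members over 100 FPKM, and 4 of them are small heat shock genes. Hspb8 and Hspa9 differed by less than the SD of Hspb8, and the other neighbours in this order by more than either SD. The next gene, Dnaja2, stood at 74.9 ± 1.45 FPKM. At the other end, 12 of the 79 genes were under 1 FPKM in sham. The inducible genes Hspa1a and Hspa1b were low, between 1.59 and 5.94 FPKM for Hspa1a and between 0.85 and 4.12 FPKM for Hspa1b over the 4 libraries.

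**Figure D3:**
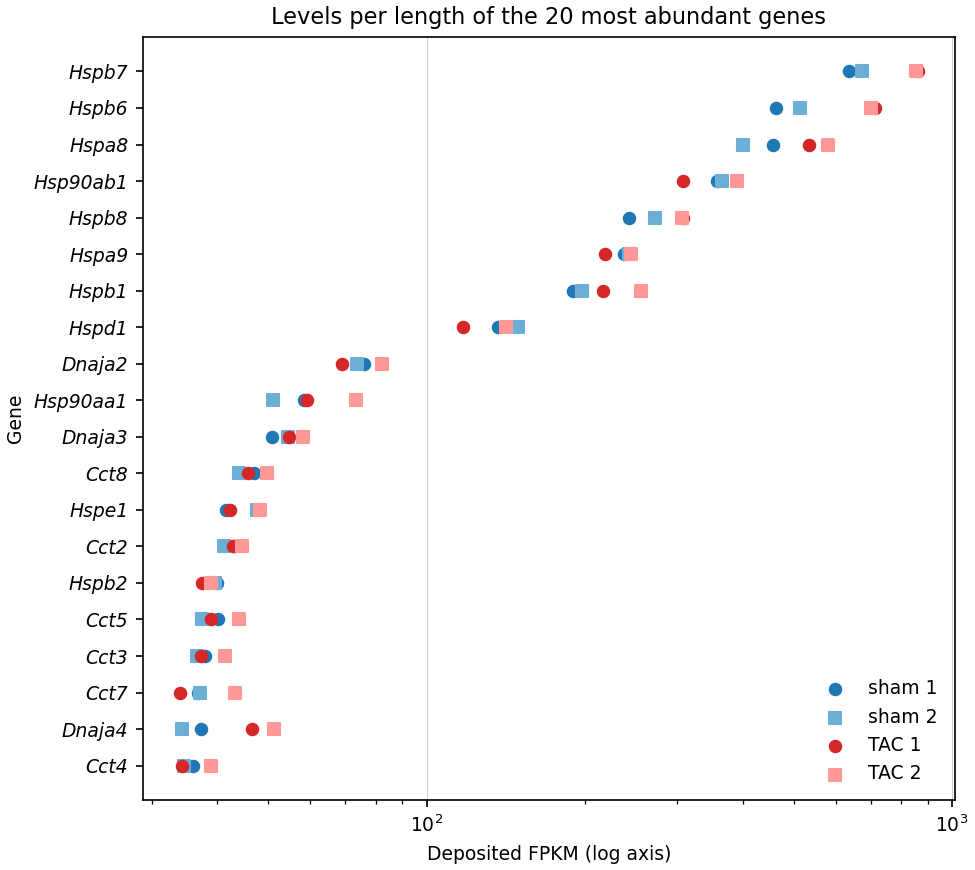
Deposited FPKM (log axis) of the 20 most abundant chaperone genes in each of the 4 libraries, ordered by the sham mean. Hspb7 leads in every library, and its TAC values stand clear of its sham values.

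Heat shock elements, the repeats that heat shock factors bind, were looked up in the promoter windows of these genes (250 bases before to 50 after the annotated start, RefSeq, GRCm38.p6). A pair of units was a GAA unit followed after 2 free bases by a TTC unit, or a TTC unit followed after 2 free bases by a GAA unit. Each pair is its own reverse complement, so the search covered both strands. A run of 3 units added a further unit of the alternate kind after 2 more free bases, and such a run contains the pairs. A window was found for 63 of the 79 genes. The paired units were present in 20 of these 63 genes (31.7%), beside 17.0% of the 27025 genes with a window. Among the genes that rose and had a window it was 8 of 10 (80.0%), and among tested genes that were not called 10 of 43 (23.3%). Dnajb1, which fell, had a window without a match, and with it the called genes came to 8 of 11 (72.7%). The letters of 3 units were found for Dnajb6, Hspd1, Hspe1 and Hsph1 (6.35%, beside 0.662% of all genes), and none of these 4 genes was called. A match describes letters in a window and is not evidence of binding, and Hspa8, Hsp90aa1 and Dnajc11 had no window. The matches of the genes that rose are shown first because they carry this comparison, with 8 bases on either side, 5′ to 3′ on the strand of the gene, and capitals mark the units.
Dnaja1, chr4:40722336-40722359, plus strand: agcctctaGAAAATTCtacgaggc
Dnaja4 upstream match, chr9:54699461-54699484, plus strand: acctccgcGAACGTTCtgggccta
Dnaja4 downstream match, chr9:54699499-54699522, plus strand: tcctggcgGAACCTTCcgccggcg
Dnajb4, chr3:152193844-152193867, minus strand: gttcgctgTTCTAGAAagtacaga
Dnajc27, chr12:4082353-4082376, plus strand: ccatcggtGAAGATTCcaggaaaa
Hspb1 upstream match, chr5:135887794-135887817, plus strand: caacaagaGAAGTTTCcagatggg
Hspb1 downstream match, chr5:135887814-135887837, plus strand: tgggggcaGAACCTTCctggcccc
Hspb3, chr13:113663885-113663908, minus strand: cccgaatgGAATTTTCaggcagag
Hspb6, chr7:30553173-30553196, plus strand: taattattGAAGTTTCtaaataag
Cct6a, chr5:129787372-129787395, plus strand: taagacttTTCGAGAAgaccccgc

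Of these runs, the units of Cct6a lie after the annotated start and all the others before it. The inducible pair Hspa1a and Hspa1b, which was not called, carried the same 24 bases at the same distance before both starts, and Hsph1 and Hspd1 are shown as genes with 3 or more units that were not called either. The 3-unit matches of Hspd1 overlap and join to 4 alternating units, which are printed whole with 6 bases on either side.
Hspa1a, chr17:34972245-34972268, minus strand: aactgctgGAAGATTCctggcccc
Hspa1b, chr17:34959327-34959350, minus strand: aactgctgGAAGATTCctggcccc
Hsph1, chr5:149636280-149636308, minus strand: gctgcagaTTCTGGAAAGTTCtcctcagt
Hspd1, chr1:55088053-55088082, minus strand: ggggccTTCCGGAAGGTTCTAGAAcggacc

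The constitutive Hsp70 of the cytosol rose. Hspa8 encodes Hsc70, which works in everyday folding, in clathrin uncoating and in chaperone-mediated autophagy. It measured 983 and 916 CPM in the sham libraries and 1456 and 1337 CPM in the TAC libraries. Both TAC libraries were well above both sham libraries, and the log2 fold change was 0.56 ± 0.09 (SE; adjusted p = 0.0202). Within each library, Hspa8 counts were 1.49 and 1.29 times those of the mitochondrial Hsp70 gene Hspa9 in sham, and 1.89 and 1.81 times in TAC. Such a ratio does not depend on the scaling of the libraries. Hspa9 itself (659 and 711 CPM in sham, 769 and 739 CPM in TAC) was not called, at 0.14 ± 0.08 (adjusted p = 0.302). With total counts the Hspa8 value was 0.36 (adjusted p = 0.107), and the Hspa9 value turned negative. With limma, a linear model of the log2 FPKM values, Hspa8 was not called at a pseudocount of 1 or 0.1 (adjusted p = 0.0883 and 0.0912).

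The largest rise was that of Hspa1l, an Hsp70 gene best known from the testis. Its levels were 7.52 and 7.96 CPM in sham against 22.8 in TAC 1 and 14.03 in TAC 2, with TAC 1 the higher. It was 2.39-fold higher in TAC, a log2 fold change of 1.26 ± 0.22 (adjusted p = 0.0273). The call held in all 11 alternative analyses, with values between 0.84 and 1.56. Of the exon bases of Hspa1l, 71.9% lie opposite the antisense gene Gm10501 in the GENCODE annotation of the same build. The sources used here do not say whether the counting used strand, so reads from both genes could not be told apart. Hspa1l, Hspa1a and Hspa1b lie next to each other on chromosome 17 (mm10), with Hspa1l at 34972703 to 34979285, Hspa1a at 34969190 to 34972156 and Hspa1b at 34956436 to 34959238.

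The heat-inducible neighbours of Hspa1l were not called. Hspa1a measured 16.1 and 4.55 CPM in sham 1 and sham 2, against 10.3 and 5.77 CPM in TAC 1 and TAC 2, and Hspa1b measured 10.5 and 2.29 CPM against 3.19 and 2.58 CPM. In both genes sham 1 was highest and sham 2 lowest, so the groups overlapped. The log2 fold changes were -0.36 ± 0.52 (adjusted p = 0.681) for Hspa1a and -1.16 ± 0.60 (adjusted p = 0.251) for Hspa1b. These genes are nearly identical in sequence and the deposited counts had decimals, so the split of reads between them is uncertain. Added to 1 feature they gave 26.6 and 6.85 CPM in sham and 13.5 and 8.34 CPM in TAC, at -0.62 ± 0.53 (adjusted p = 0.480). The values rested on single libraries. Without sham 1 they were 0.82 (adjusted p = 0.137) for Hspa1a and 0.33 (adjusted p = 0.681) for Hspa1b, and without sham 2 both were called lower, at -0.99 (adjusted p = 0.0373) and -1.86 (adjusted p = 0.000976).

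Dnajb1, the J-domain partner of inducible Hsp70, was the only chaperone gene called lower. It stood at 12.8 and 9.17 CPM in sham and at 6.31 and 5.40 CPM in TAC, and the groups did not overlap. The level in TAC was 1.88-fold lower, a log2 fold change of -0.91 ± 0.19 (adjusted p = 0.0455). The direction was the same in all alternatives, but the call was lost without sham 1 (-0.64, adjusted p = 0.128), without TAC 1 (adjusted p = 0.0671) and without TAC 2 (adjusted p = 0.0581). Within each library, Dnajb1 counts were 0.0130 and 0.0100 of those of Hspa8 in sham and 0.0043 and 0.0040 in TAC. Hsph1, the inducible Hsp110 gene, was not called, at 56.0 and 72.4 CPM in sham and 61.7 and 73.7 CPM in TAC (0.08 ± 0.14, adjusted p = 0.747). A list of 22 immediate early genes, which are switched on within minutes of a stimulus, was highest in sham 1 as well. It summed to 1379 and 865 CPM in sham 1 and sham 2, against 496 and 442 CPM in TAC 1 and TAC 2, and 11 of the 22 genes were called lower in TAC, beside 2.43% of all genes. The part of cell isolation in these values was not tested.

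**Figure D4:**
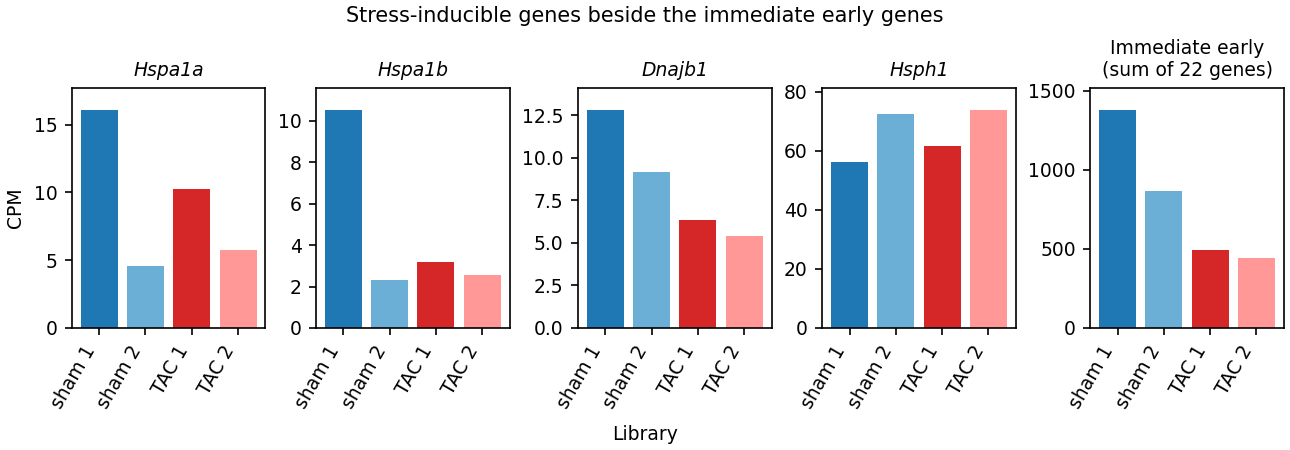
Level in CPM of 4 stress-inducible chaperone genes and the summed level of 22 immediate early genes, with 1 bar per library and axes that start at 0. Hspb1, also named above as inducible, is not drawn and was called higher in TAC. Sham 1 has the highest bar for Hspa1a, Hspa1b, Dnajb1 and the immediate early genes, and Hsph1 is lowest there.

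Among the other Hsp70-related genes, Hspa12a (28.0 and 27.3 CPM in sham, 24.9 and 21.0 CPM in TAC) and Hspa12b (12.7, 10.5, 8.68 and 10.1 CPM in the same order) were not called, at -0.27 and -0.30. Hspa12b is known from endothelial cells, whose markers were lower in TAC as given above. The cytosolic Hsp110 gene Hspa4 was at 145 and 153 CPM in sham and 191 and 182 CPM in TAC. That difference of 0.32 ± 0.07 did not pass the test (adjusted p = 0.0525), although DESeq2 called it (adjusted p = 0.0175). Its relative Hspa4l had a log2 fold change of 0.00 ± 0.10. As a family the 10 Hsp70 genes had a median of -0.16, with 2 higher (beside 2.58% of all genes) and 0 lower (beside 2.43%). That median rested on sham 1, without which it was 0.06, and without sham 2 both Hspa1a and Hspa1b were lower. It was -0.05 with Hspa1a and Hspa1b added to 1 feature.

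Of the 2 Hsp90 genes of the cytosol 1 rose. Hsp90aa1, the stress-responsive form that muscle also needs to fold myosin, measured 156 and 145 CPM in sham and 201 and 213 CPM in TAC. It was 1.38-fold higher, or 0.46 ± 0.08 on the log2 scale (adjusted p = 0.0243). Hsp90ab1, the constitutive and more abundant form, measured 819 and 883 CPM in sham and 892 and 974 CPM in TAC (0.13 ± 0.09, adjusted p = 0.354), and its sign flipped with total counts. The count ratio of Hsp90aa1 to Hsp90ab1, free of scaling, was 0.191 and 0.164 in sham and 0.225 and 0.219 in TAC. With total counts Hsp90aa1 was not called (0.28, adjusted p = 0.252), and it missed the threshold with totals that left out mitochondrially encoded genes (adjusted p = 0.0547) and with limma on FPKM (adjusted p = 0.270 and 0.276).

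Of the 7 small heat shock genes tested, grouped by their Hspb symbol, 4 were higher (beside 2.58% of all genes) and 0 lower (beside 2.43%). Their median was 0.47. This was the largest family median with all libraries, but without sham 1 it was 0.40, below the 0.43 of the Dnaja genes. Hspb6, which encodes Hsp20, a phosphoprotein of muscle, measured 573 and 674 CPM in sham and 1122 and 945 CPM in TAC. The log2 fold change was 0.73 ± 0.12 (adjusted p = 0.0205), and the call held in all 11 alternative analyses. With total counts and 1 library left out as well, it was lost without sham 1 (0.46, adjusted p = 0.624) and without sham 2 (0.62, adjusted p = 0.194). Hspb7, the most abundant member and a filamin-binding chaperone of heart muscle, went from 1604 and 1795 CPM to 2744 and 2346 CPM (0.58 ± 0.11, adjusted p = 0.0327). Its call was lost without sham 1 (adjusted p = 0.0636), without TAC 1 (adjusted p = 0.0703), with total counts (0.39, adjusted p = 0.0809) and with limma on FPKM (adjusted p = 0.0693 and 0.0733).

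Hspb1, or Hsp25 in mice, guards actin filaments. It measured 156 and 172 CPM in sham and 225 and 229 CPM in TAC, 1.38-fold higher (0.47 ± 0.08, adjusted p = 0.0230). It was not called with total counts (0.28, adjusted p = 0.200) or with limma on FPKM (adjusted p = 0.204 and 0.206). Hspb3, a muscle member that pairs with Hspb2, was low, at 4.23 and 4.87 CPM against 8.61 and 7.93 CPM, and rose by 0.86 ± 0.16 (adjusted p = 0.0313). Without sham 1 and without TAC 1 its adjusted p was 0.0766 and 0.0921, and with total counts 0.0798. Hspb2 itself was not called (27.8 and 29.1 CPM in sham, 32.9 and 29.1 CPM in TAC; 0.12 ± 0.10, adjusted p = 0.436), and 30.2% of its exon bases overlap Cryab on the other strand. Relative to Hspb2 within each library, Hspb6 counts were 20.6 and 23.2 times as high in sham and 34.2 and 32.5 times in TAC, and Hspb7 counts 57.7 and 61.7 against 83.6 and 80.7 times.

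Hspb8, which works with the co-chaperone Bag3 to clear damaged filament proteins, measured 402 and 476 CPM in sham and 645 and 551 CPM in TAC. The groups did not overlap, but the difference of 0.44 ± 0.11 did not pass the test (adjusted p = 0.0642). DESeq2 called it (adjusted p = 0.0022). The ratio of Hspb1 to Hspb8 overlapped between groups, at 0.389 and 0.361 in sham and 0.349 and 0.416 in TAC. The remaining tested gene, Hspb11, was placed in this family by its symbol alone. It was near 1 CPM in every library (0.941 to 1.29 CPM) with overlapping groups.

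**Figure D5:**
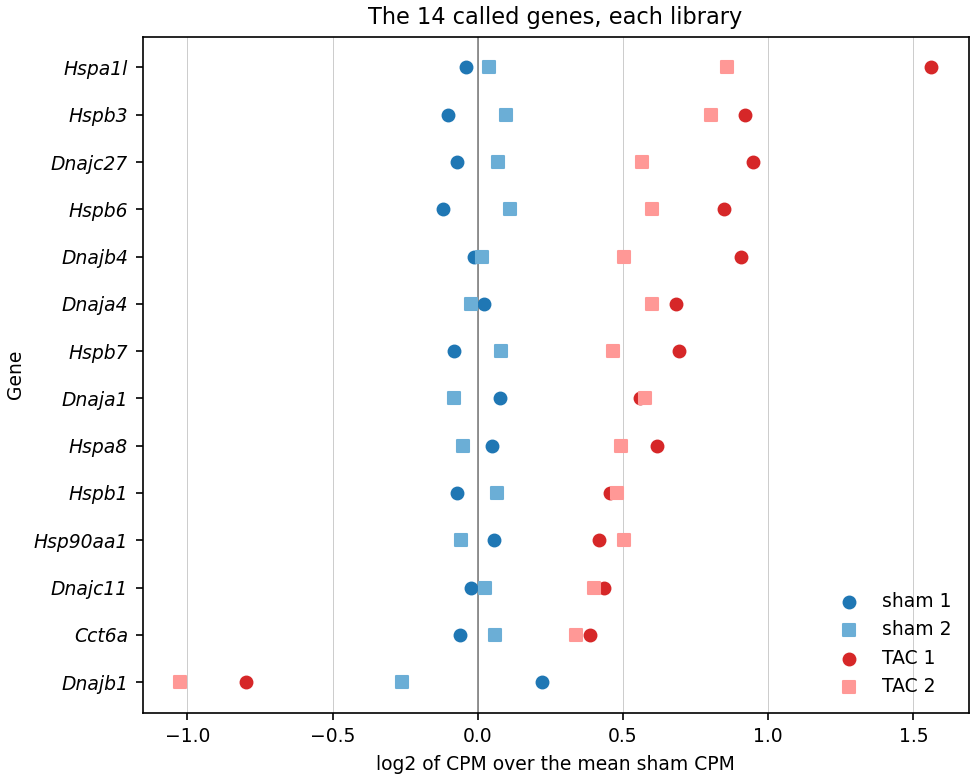
Level of each of the 14 called genes in each library, as log2 of CPM over the mean of the 2 sham libraries, with blue for sham and red for TAC. The groups stand apart for all 14 genes, TAC 1 lies furthest right for Hspa1l, and Dnajb1 is the only gene with TAC to the left.

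J-domain genes made up 42 of the 79 members. Of the 34 tested, 5 were higher (beside 2.58% of all genes) and 1 lower (beside 2.43%), and the median was 0.18. For the Dnaja genes, most of which are close partners of cytosolic Hsp70, the median was 0.43. Of these 4 genes 2 were called higher, beside 2.58% of all genes. With TMM scaling all 4 were above sham in both TAC libraries, beside 29.8% of all genes. With total counts this held for 3, since Dnaja2 overlapped, beside 8.74% of all genes. In the deposited FPKM it held for Dnaja3 and Dnaja4, beside 8.49% of all genes, the other 2 overlapping. Dnaja4, a form known from heart and muscle, had the smallest adjusted p of all members. It measured 102 and 98.8 CPM in sham and 161 and 152 CPM in TAC, 1.56-fold higher (0.64 ± 0.07, adjusted p = 0.00669). Of its exon bases, 44.1% overlap Wdr61 on the other strand, a gene with 302 to 337 counts in each library, far fewer than Dnaja4. Dnaja1 measured 33.7 and 30.2 CPM in sham and 47.0 and 47.6 CPM in TAC, a rise of 0.57 ± 0.09 (adjusted p = 0.0196). Dnaja2, the most abundant J-domain gene, was not called (202 and 207 CPM in sham, 232 and 238 CPM in TAC, 0.20 ± 0.07, adjusted p = 0.125). The count ratio of Dnaja4 to Dnaja2 was 0.505 and 0.476 in sham and 0.694 and 0.640 in TAC. With total counts Dnaja1 (adjusted p = 0.141) and Dnaja4 (adjusted p = 0.0610) were not called, nor with limma on FPKM (adjusted p = 0.395 and 0.404 for Dnaja1, 0.0574 and 0.0644 for Dnaja4).

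Dnajb4, a further partner of cytosolic Hsp70, moved opposite to Dnajb1. Its levels were 79.0 and 80.5 CPM in sham, 149 CPM in TAC 1 and 113 CPM in TAC 2. The rise was 0.72 ± 0.13 (adjusted p = 0.0269), and it was called in all 11 alternative analyses. With total counts it was lost when sham 1 (0.54, adjusted p = 0.405) or sham 2 (0.49, adjusted p = 0.303) was left out as well. Dnajb5 showed the same split within TAC, at 88.7 CPM in TAC 1 and 57.8 CPM in TAC 2 above 48.4 and 51.2 CPM in sham. It was not called (0.56 ± 0.18, adjusted p = 0.101), and its value was 0.21 without TAC 1 and 0.84 without TAC 2. Dnajb2, Dnajb6, Dnajb12 and Dnajb14 had values of 0.16 to 0.27 and none was called.

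The Dnajc genes, a mixed group with J domains in many cell compartments, had a median of 0.10 over 23 tested, and -0.08 with total counts. Of these genes 2 were higher (beside 2.58% of all genes) and 0 lower (beside 2.43%). Dnajc27, a small GTPase-like protein with a J domain, measured 10.1 and 11.1 CPM in sham and 20.4 and 15.7 CPM in TAC (0.77 ± 0.15, adjusted p = 0.0357), and was not called without TAC 1 (0.57, adjusted p = 0.109), with total counts (adjusted p = 0.0650) or with limma on FPKM (adjusted p = 0.117 and 0.121). Dnajc11, which belongs to the machinery that shapes mitochondrial cristae, measured 50.6 and 52.2 CPM in sham and 69.5 and 67.8 CPM in TAC (0.42 ± 0.07, adjusted p = 0.0278). The call was lost without sham 1 (adjusted p = 0.0686), without TAC 1 (adjusted p = 0.0781), with total counts (0.23, adjusted p = 0.292) and with limma on FPKM (adjusted p = 0.335 and 0.339). On the negative side, Dnajc28 (50.5 and 56.2 CPM in sham, 47.6 and 45.0 CPM in TAC) and the endosomal Dnajc13 (42.9 and 45.1 CPM against 40.1 and 40.9 CPM) had values of -0.20 and -0.12 and did not pass the test.

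The Cct genes showed small differences of 1 sign. With TMM scaling, in all 7 tested subunit genes both TAC libraries were above both sham libraries, beside 29.8% of all genes. Their log2 fold changes ran from 0.24 to 0.36, with a median of 0.26. Cct6a was the one called, at 64.8 and 70.4 CPM in sham and 88.3 and 85.5 CPM in TAC (0.36 ± 0.08, adjusted p = 0.0454). It was called in 4 of the 11 alternative analyses. The call was lost without sham 1 (adjusted p = 0.157), without TAC 1 (adjusted p = 0.133), with total counts (0.18, adjusted p = 0.413), with totals that left out mitochondrially encoded genes (adjusted p = 0.0683), with limma on FPKM (adjusted p = 0.457 and 0.458) and with the replicate block (adjusted p = 0.0715). Cct5 measured 66.7 and 66.0 CPM in sham and 82.5 and 80.4 CPM in TAC, a difference that did not pass (0.30 ± 0.07, adjusted p = 0.0576). For Cct2, Cct3, Cct4, Cct7 and Cct8 the adjusted p lay between 0.0756 and 0.0961, at values of 0.24 to 0.27. The sham levels of the 7 genes ran from 27.9 FPKM for Cct6a to 45.5 FPKM for Cct8. With total counts none of the 7 changed sign, but their median was 0.07 and none was called. The groups then stayed apart for 2 (Cct2 and Cct6a, TAC higher, beside 8.74% of all genes) and overlapped for 5. In the deposited FPKM they stayed apart for Cct6a (TAC higher, beside 8.49% of all genes) and overlapped for the other 6. The last subunit genes, Cct6b and the related Cct8l1, had at most 2 counts in a library.

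The genes of the mitochondrial folding chamber were not called. Hspd1, or Hsp60, measured 276 and 318 CPM in sham and 299 and 316 CPM in TAC (0.05 ± 0.09, adjusted p = 0.75), with overlapping groups. Its lid Hspe1, or Hsp10, measured 29.3 and 35.4 CPM in sham and 37.8 and 36.9 CPM in TAC (0.21 ± 0.11, adjusted p = 0.247). These genes are transcribed in opposite directions from 1 shared region, which holds the 4 units printed above, and 112 exon bases belong to both. Dnaja3, the J-domain partner of Hspa9, measured 118 and 133 CPM in sham and 160 and 146 CPM in TAC (0.29 ± 0.09, adjusted p = 0.0954). Over all 9 mitochondrial members 1 was higher, Dnajc11 (beside 2.58% of all genes), and the median was 0.17. The 9 members of the endoplasmic reticulum had a median of 0.00, and none was called by edgeR or DESeq2. Of these, 2 had an unadjusted p under 0.05, beside 27.5% of all genes.

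Partner genes outside the rule were read from the same fit. Of 12 Hsp70 co-chaperones, 2 were higher, beside 2.58% of all genes. Bag3, which links Hsp70 to Hspb8 and holds the Z-disc in repair, measured 217 and 216 CPM in sham and 335 and 302 CPM in TAC (0.56 ± 0.08, adjusted p = 0.0149). Bag2 rose from 27.5 and 30.9 CPM to 43.0 and 39.2 CPM (0.49 ± 0.10, adjusted p = 0.0366), and was not called without sham 1 (adjusted p = 0.104), without TAC 1 (adjusted p = 0.105) or with limma on FPKM (adjusted p = 0.235 and 0.242). With totals that left out mitochondrially encoded genes its adjusted p was 0.050003, at the threshold. Stip1, which hands clients from Hsp70 to Hsp90, was not called (0.23, adjusted p = 0.174). Of 14 Hsp90 co-chaperones, 1 was higher, beside 2.58% of all genes. It was Ptges3 or p23, at 38.4 and 39.5 CPM in sham and 52.7 and 51.0 CPM in TAC (0.41 ± 0.08, adjusted p = 0.0313). Without sham 1, sham 2 and TAC 1 the adjusted p of Ptges3 was 0.0906, 0.0547 and 0.0892, and it was 0.0532 with totals that left out mitochondrially encoded genes and 0.0531 with the replicate block. With total counts none of these 3 genes was called, nor with limma on FPKM, where the adjusted p was 0.0884 and 0.0908 for Bag3 and 0.345 and 0.349 for Ptges3. Fkbp5 was not called (-0.28, adjusted p = 0.473), with values of -0.61 without sham 1 and 0.15 without sham 2.

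Cryab, the small heat shock protein alphaB-crystallin, rose from 814 and 919 CPM to 1244 and 1110 CPM (0.44 ± 0.10, adjusted p = 0.0495), and was not called without sham 1 (adjusted p = 0.148), without TAC 1 (adjusted p = 0.144), with total counts (0.25, adjusted p = 0.218), with limma on FPKM (adjusted p = 0.2195 and 0.2196), with totals that left out mitochondrially encoded genes (adjusted p = 0.0573) or with the replicate block (adjusted p = 0.0751). Its relative Cryaa had no count. Of 7 genes for prefoldin and the remaining ring subunit, none was called by edgeR or DESeq2. An unadjusted p under 0.05 was found for 2 of them, beside 27.5% of all genes. Tcp1 measured 107 and 120 CPM in sham and 134 and 127 CPM in TAC (0.20 ± 0.08, adjusted p = 0.162). Heat shock factor 1 showed no called difference (Hsf1, 17.2 and 17.9 CPM in sham, 20.6 and 17.4 CPM in TAC, 0.12 ± 0.12, adjusted p = 0.539). None of the 4 tested genes for heat shock factors and their regulators was called with either tool. An unadjusted p under 0.05 was reached by 1 of the 4, beside 27.5% of all genes. Of 7 mitochondrial partner genes none was called with either tool, and 3 had an unadjusted p under 0.05, beside 27.5% of all genes.

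The chaperones of the endoplasmic reticulum served as the nearest group for comparison. Of 14 such genes none was called by edgeR or DESeq2, 0 had an unadjusted p under 0.05, and their median was -0.02, where 34 of the 67 chaperone genes of the set had an unadjusted p under 0.05 (50.7%, beside 27.5% of all genes). Hspa5, the Hsp70 of that compartment, measured 679 and 534 CPM in sham and 563 and 564 CPM in TAC (-0.11 ± 0.12, adjusted p = 0.583), with overlapping groups. The count ratio of Hspa8 to Hspa5 was 1.45 and 1.72 in sham and 2.58 and 2.37 in TAC, so the cytosolic and the reticulum Hsp70 stood further apart in both TAC libraries. Whether the groups of genes differ as groups was not tested.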

How the data were processed

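Cardiomyocyte RNA from 2 sham and 2 TAC mice was extracted with TRIzol and made into Illumina libraries. The authors deposited an expected count (estimated, not always whole) and an FPKM value per gene for each library. Per the submitters' processing notes, Bowtie2 2.2.8, StringTie 1.3.1 and the mm10 build were used. The sources used here do not give their roles, the annotation, the use of strand, or the length and total behind FPKM. The replicate libraries of a group differed by more than counting noise (chi-square per degree of freedom of 8.08 in sham and 26.7 in TAC) and were kept as separate samples.

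Counts were rounded and analysed in R 4.3.3 with edgeR 4.0.16: filterByExpr, TMM factors (1.097 and 1.04 in sham, 0.868 and 1.009 in TAC), glmQLFit and glmQLFTest without a block, and Benjamini-Hochberg adjustment over 12499 genes. CPM used TMM-scaled library sizes. The standard error is the log2 fold change divided by the square root of F. The biological coefficient of variation was 10.5%. With 2 libraries per group an exact permutation test of 1 gene cannot go below p = 0.333, so each p rests on the spread pooled over genes. Alternatives were total counts, totals without mitochondrially encoded genes, DESeq2 1.42.0, no low-count filter, a replicate block, each library left out, and limma 3.58.1 on log2(FPKM + 1) or log2(FPKM + 0.1) for genes with a mean FPKM over 1. Scripts were tested on simulated data. Gene positions and overlaps came from the GENCODE annotation of GRCm38.

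The members, partner lists and marker lists were chosen with earlier results of these data known. The genes named were all called members, the 5 largest rises and 5 largest falls among members of at least 5 CPM whose groups did not overlap, and the inducible, constitutive, small heat shock, mitochondrial and Cct genes. Dnajb5, Hspa4, Hspa4l, Dnaja2, Dnajb2, Dnajb6, Dnajb12, Dnajb14 and Hspb11 fall outside this rule and were chosen after their values were seen. Red blood cell markers were also summed (84.9 and 73.8 CPM in sham, 49.9 and 125 CPM in TAC, 0 of 5 called). Protein sequences were not used here.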

Additional observations from a re-analysis of the deposited data

How the results depend on the processing

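Each group held n = 2 libraries, and the effect of depth was not tested. The 14 called genes (13 higher, 1 lower) became 4 with total counts (3 higher), 5 with limma on FPKM at either pseudocount (4 higher), and 8 to 17 when 1 library was left out (8 to 17 higher, 0 to 3 lower, fewest without TAC 1). DESeq2, totals without mitochondrially encoded genes, no low-count filter and the replicate block gave 16, 12, 19 and 13. The share of all genes called moved too, from 2.34% without TAC 1 to 10.3% without TAC 2, and was 7.4% with DESeq2, 10.5% with no low-count filter and 5.02% and 4.21% with limma. The median log2 fold change of 0.19 became 0.00 with total counts (0.0027), 0.0929 with totals without mitochondrially encoded genes, 0.0238 and 0.0243 with limma at the larger and smaller pseudocount, and 0.1797 to 0.2418 with 1 library left out. The scaling by construction moves all genes together. The cause of the changes with limma and with single libraries was not tested.

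The study's methods speak of pairs of sham and TAC mice, but the sources used here do not say whether a replicate number marks such a pair. Deviations of same-numbered libraries correlated at -0.24, which over 2 numbers does not settle it. With the number as a block 12 genes were higher (beside 2.14% of all genes) and 1 lower (beside 2.38%). Cct6a was the member that lost its call. With crossed numbers, chosen after seeing the data, 25 were called, 24 of them higher, beside 17% of all genes (7.74% higher). Total counts with 1 library left out, also chosen after seeing the data, called 1 gene without sham 1 (1 higher, 0 lower), 4 without sham 2 (1 higher, 3 lower), 10 without TAC 1 and 24 without TAC 2 (10 higher, 14 lower), beside 1.85%, 5.49%, 4.88% and 27.2% of all genes (25.3% lower without TAC 2), with medians of 0.0324, 0.0087, 0.1126 and -0.1038. For the named members, 301 values over the alternatives other than those chosen after seeing the data kept direction and side of the threshold, 43 lost the call, 9 gained it and 22 changed sign, none of the latter in a called gene. Sign changes with total counts were Hsp90ab1 (-0.0492), Hspa9 (-0.0492), Hspb2 (-0.0707), Hspd1 (-0.1314) and Hsph1 (-0.0973), and with totals without mitochondrially encoded genes Hspd1 (-0.0474) and Hsph1 (-0.0188). With limma at the larger and smaller pseudocount the values were -0.0587 and -0.0589 for Hsp90ab1, -0.0511 and -0.0513 for Hspa9, -0.0585 and -0.0598 for Hspb2, -0.1471 and -0.1482 for Hspd1, and -0.0868 and -0.0912 for Hsph1. With 1 library left out, values ran from -0.9898 to 0.8242 for Hspa1a, -1.8567 to 0.3335 for Hspa1b, -0.048 to 0.1609 for Hspd1 and -0.0964 to 0.2777 for Hsph1.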
